A study of Mus musculus with 12 samples.

Results

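The genes described here make fatty acids and load them onto glycerol. They are the 10 genes Srebf1, Fasn, Acaca, Acacb, Scd1, Scd2, Elovl6, Me1, Gpam and Agpat2. They were chosen by symbol, with earlier results of these data known. Each was represented by its probe set with the brightest mean over all arrays. All 10 were among the 11345 genes that passed the signal filter and were tested. Muscle RNA of 12 mice aged 16 weeks was measured on one-colour Affymetrix arrays, with 3 mice in each of 4 groups: KO on high fat diet (KO HFD), KO on normal diet (KO ND), wild type on high fat diet (WT HFD) and wild type on normal diet (WT ND). KO mice lacked GPR120, a receptor for long-chain fatty acids encoded by Ffar4, and all mice had a mixed 129/Sv and C57BL/6 background. The labels do not say whether the deletion spans every tissue, which muscle was taken or how the diets were composed. The mice of each group carry label numbers in a range of their own, and any difference between the groups in origin or handling cannot be told apart from diet and genotype.

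In lipogenesis, cytosolic acetyl-CoA is carboxylated to malonyl-CoA, fatty acid synthase builds palmitate from it with NADPH, and elongases and desaturases turn palmitate into longer and monounsaturated chains. Acyltransferases then esterify these chains to glycerol phosphate on the way to triglyceride. SREBP-1c, a product of Srebf1, is a transcription factor that insulin activates and that drives many of these genes in liver and fat. In muscle the pathway runs at a low rate, and malonyl-CoA is known there mainly as the inhibitor of fatty acid entry into mitochondria.

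Values are log2 signals, so a difference of 1 is a doubling. A gene was called changed when limma's Benjamini-Hochberg adjusted p, over all 11345 genes, was under 0.05. The 7 skeletal muscle markers (Ckm, Acta1, Mb, Mylpf, Tnnt3, Ryr1 and Ttn) averaged 13.08 to 13.97, near the top of the scale, while the hepatocyte markers Alb, Apoa1 and Ttr averaged 3.77, 1.60 and 2.12, each below the filter of 3.78. The deleted gene, Ffar4, lay below the filter and so gives no check of genotype, at 2.31 ± 1.18 in KO HFD, 2.48 ± 1.89 in KO ND, 1.41 ± 0.93 in WT HFD and 0.23 ± 1.86 in WT ND (SD, n = 3 each). The 10 genes ranged from Elovl6, at the 52nd percentile of all probe sets with a mean of 3.95, to Scd1, at the 99th with 11.87. Levels of different probe sets are not comparable with each other, so comparisons below are made within a gene.

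The regulator Srebf1 and the first enzyme of triglyceride assembly, Gpam, were higher on the high fat diet in muscle of both genotypes. Averaged over genotypes, 4 of the 10 genes rose and 0 fell: Srebf1 1.65-fold, Gpam 1.73-fold, Scd2 1.5-fold and Agpat2 1.83-fold. Of all genes tested, 7.49% were called higher and 6.19% lower in that comparison. The median log2 difference of the 10 genes was 0.45, against 0.06 over all genes. Because the genes were chosen with earlier results known, these shares and medians are descriptions. The remaining genes were not called. Fasn, Acaca, Acacb and Elovl6 had log2 differences of 0.16, 0.11, −0.05 and 0.01. Scd1 was at 0.57 (limma adjusted p = 0.209), much like the called Scd2 at 0.58, and Me1 was at 0.33 (adjusted p = 0.195).

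Srebf1, on chromosome 11, read 8.55, 8.86 and 8.83 in KO HFD mice, against 7.99, 8.13 and 8.07 in KO ND mice. In WT it read 9.04, 8.92 and 8.78 on HFD, against 8.58, 7.86 and 8.0 on ND. HFD and ND mice did not overlap in either genotype, as was the case in the same upward direction for 4.59% of all genes. The log2 difference was 0.68 ± 0.16 in KO (SE, n = 3 per group, limma adjusted p = 0.0344) and 0.76 ± 0.16 in WT (adjusted p = 0.0179). Averaged over genotypes it was 0.72 ± 0.12 (adjusted p = 0.00171). The averaged call held in all 24 alternative settings, with differences between 0.65 and 0.90. The diet effects of the genotypes differed by −0.08, with a 95% interval from −0.58 to 0.42 (adjusted p = 0.940).

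Gpam, on chromosome 19, encodes the mitochondrial glycerol-3-phosphate acyltransferase that attaches the first acyl chain. It read 11.44, 12 and 12 in KO HFD mice, against 10.93, 10.99 and 11.11 in KO ND mice. WT HFD mice read 11.65, 12.21 and 11.55, against 11.23, 10.59 and 11.26 in WT ND mice. Again HFD lay above ND without overlap in both genotypes. The log2 difference was 0.81 ± 0.21 in KO (SE, n = 3 per group, limma adjusted p = 0.0436), 0.78 ± 0.21 in WT (adjusted p = 0.0409) and 0.79 ± 0.14 averaged (adjusted p = 0.00373). The averaged call held in all 24 alternatives, between 0.68 and 1.05. A second Gpam probe set averaged 3.68, below the filter.

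**Figure D1:**
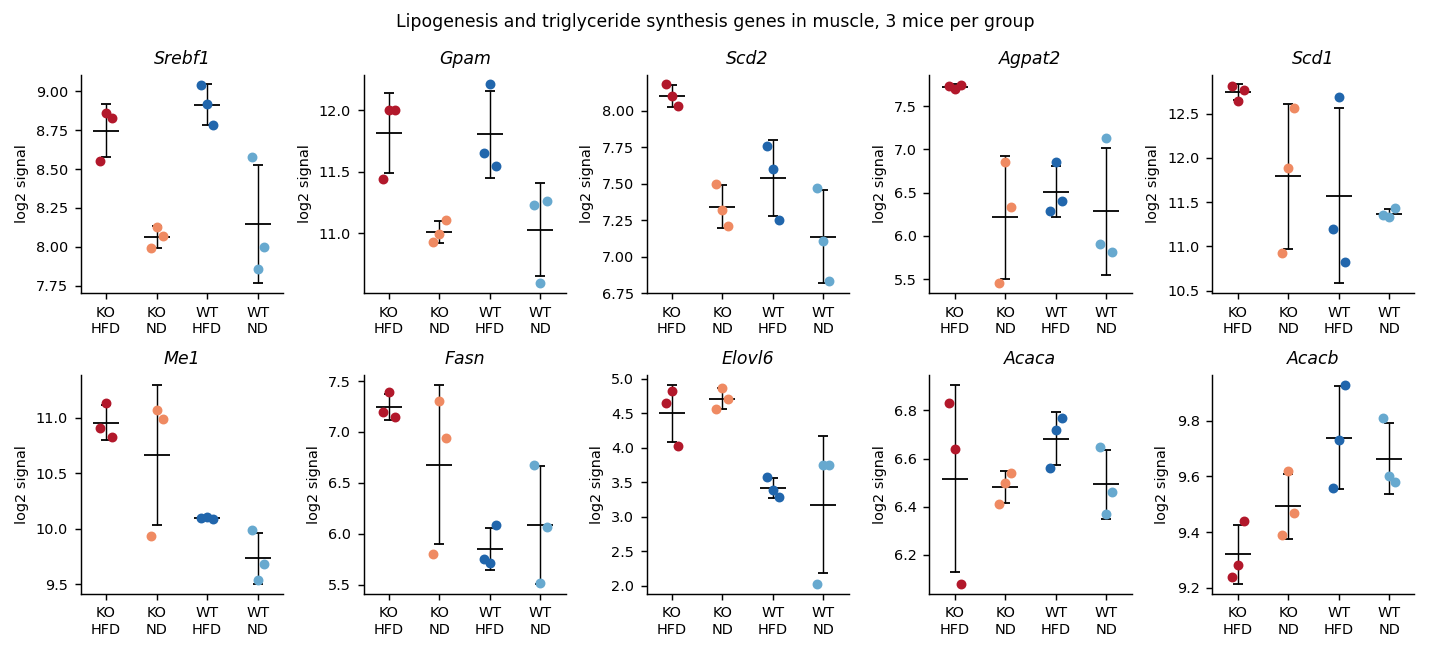
Log2 signal (vertical axis, one scale per gene) of the 10 lipogenesis and triglyceride synthesis genes in each mouse, with 3 mice in each of the groups KO HFD, KO ND, WT HFD and WT ND on the horizontal axis. Points are mice, horizontal bars are means and error bars are SD; Srebf1 and Gpam lie higher on HFD than on ND in both genotypes, and Agpat2 read 7.70 to 7.75 in the KO HFD mice and at most 7.13 elsewhere.

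Scd2 and Agpat2 passed in KO muscle and not in WT muscle. Scd2, a stearoyl-CoA desaturase that adds the first double bond to saturated chains, read 8.18, 8.10 and 8.03 in KO HFD mice, against 7.50, 7.32 and 7.21 in KO ND mice. In WT it read 7.76, 7.60 and 7.25 on HFD, against 7.47, 7.11 and 6.83 on ND, and these ranges overlapped. The log2 difference was 0.76 ± 0.17 in KO (SE, n = 3 per group, limma adjusted p = 0.0265) and 0.40 ± 0.17 in WT (adjusted p = 0.180). Their difference was 0.36, with a 95% interval from −0.16 to 0.88 (adjusted p = 0.628), so the genotypes were not shown to respond differently.

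Agpat2, an acylglycerolphosphate acyltransferase that attaches the second acyl chain and is abundant in adipose tissue, read 7.73, 7.70 and 7.75 in KO HFD mice, against 5.45, 6.85 and 6.34 in KO ND mice. WT HFD mice read 6.29, 6.85 and 6.40, against 5.91, 7.13 and 5.81 in WT ND mice. The KO HFD mice lay above all the other mice and close together. The log2 difference was 1.52 ± 0.36 in KO (SE, n = 3 per group, limma adjusted p = 0.0317), which is 2.86-fold, and 0.23 ± 0.36 in WT (adjusted p = 0.762). The diet effects differed by 1.29 (95% interval 0.20 to 2.37, unadjusted p = 0.0232 in limma), which did not pass over all genes (adjusted p = 0.392). Averaged over genotypes Agpat2 was at 0.87 ± 0.25 (adjusted p = 0.0362), a call that held in 11 of 24 alternatives. It was lost without WT ND mouse 1 or 3, WT HFD mouse 2 or 3, KO ND mouse 1 or 3, or any KO HFD mouse, at 0.68 to 0.90 with adjusted p between 0.0511 and 0.0830.

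By genotype, the count in KO muscle was 4 of 10 higher and 0 lower, against 2.66% of all genes called higher and 1.88% lower. In WT muscle it was 2 of 10 higher and 0 lower, against 3.07% and 2.99% of all genes. HFD mice lay above ND mice without overlap for 5 of the 10 genes in KO, while 16.3% of all genes did so. The same held for 3 of 10 in WT (15.7% of all genes), where the third gene was Me1 with its difference of 0.36 (adjusted p = 0.365). The single-genotype calls depended on single mice. Leaving out WT ND mouse 2 or 3 or WT HFD mouse 1 or 2 left 0 of the 10 genes called in WT, with Srebf1 at adjusted p 0.0536 to 0.0834 and differences of 0.62 to 0.76. Calls over all 11345 genes fell as well, to between 199 and 383 in WT, against 687 with all mice. Gpam in WT was at 0.56 without WT ND mouse 2 (adjusted p = 0.170) and at 0.57 without WT HFD mouse 2 (adjusted p = 0.146). It also lost its call without WT ND mouse 3, WT HFD mouse 1, any KO ND mouse or KO HFD mouse 3, with adjusted p between 0.0513 and 0.0665, so 1 of 10 genes remained called in WT without any one of those KO mice. In KO, 0 of the 10 genes were called without KO ND mouse 3, KO HFD mouse 2 or KO HFD mouse 3, 1 without KO ND mouse 1 or 2, and 2 without KO HFD mouse 1. Over all genes, between 133 and 363 were called in KO without any one of these mice, against 515 with all mice. Directions of the calls were the same in every one of these settings.

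**Figure D2:**
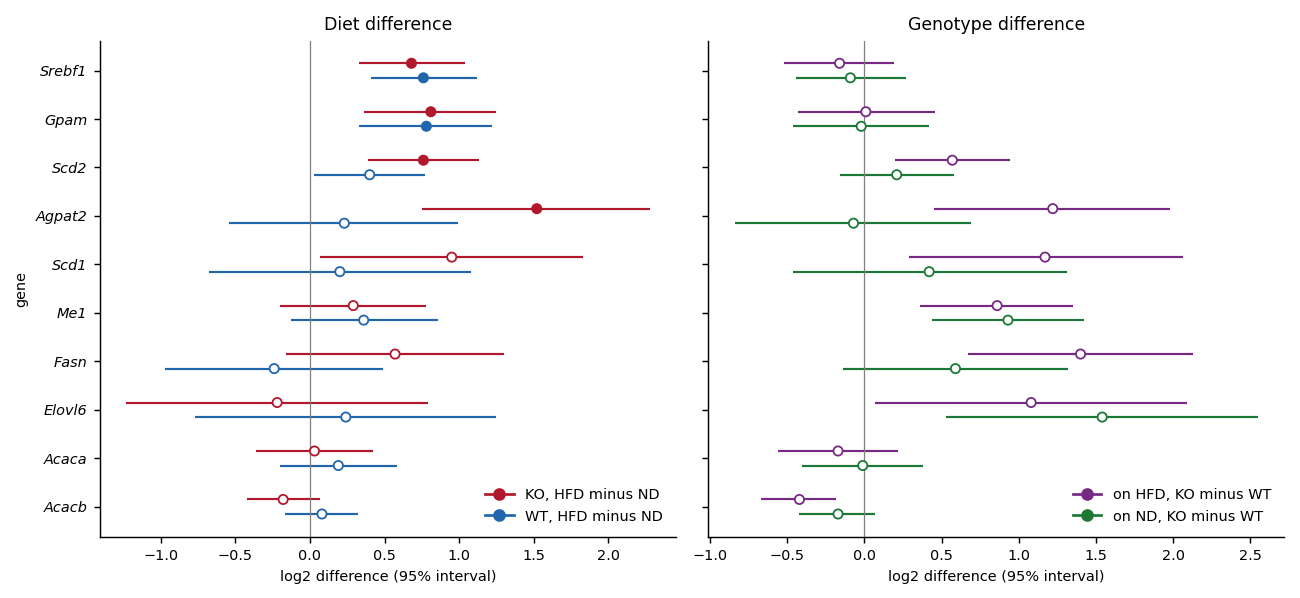
Log2 difference (horizontal axis) of each of the 10 genes with its 95% interval, for diet within each genotype (left, KO and WT) and for genotype on each diet (right, HFD and ND). Filled points passed an adjusted p of 0.05 in limma and open points did not; the filled points are Srebf1 and Gpam in both genotypes, and Scd2 and Agpat2 in KO.

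A control ratio for RNA integrity and markers of adipocytes differed between these groups. The control probe sets of beta-actin and Gapdh gave a 3′ to 5′ log2 ratio, averaged over both genes, of 0.16 ± 0.13 in KO HFD, 0.07 ± 0.06 in KO ND, 0.18 ± 0.02 in WT HFD and −0.02 ± 0.09 in WT ND (SD, n = 3 each). Over the 12 arrays the beta-actin ratio ran from 0.09 to 0.75 and the Gapdh ratio only from −0.28 to −0.19. The averaged ratio therefore mostly followed beta-actin. After adjustment for that ratio, the averaged diet difference was 0.90 for Srebf1 (adjusted p = 0.00904) and 1.05 for Gpam (adjusted p = 0.00977). It was 0.59 for Scd2 (adjusted p = 0.0795), against 0.58 without the ratio, and 0.37 for Agpat2 (adjusted p = 0.525), against 0.87. Of the 4 averaged calls, 2 were lost, that of Scd2 without a smaller difference. Single-genotype diet calls over all genes fell too in this setting, from 515 to 265 in KO and from 687 to 186 in WT.

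Of 10 white adipocyte markers, 8 had a probe set of their own, 7 passed the filter and Acvr1c did not, and Cfd and Plin1 had no probe set named for them alone. Their summed linear signal was 15779 to 17469 in KO HFD mice, 7182 to 11387 in KO ND mice, 8765 to 15712 in WT HFD mice and 7665 to 9377 in WT ND mice. The KO HFD mice were the highest on this sum. Being linear, the sum mostly follows its brightest marker, Fabp4, with a mean log2 signal of 13.04, against 10.92 for Adipoq, the next. Adipoq, the adipocyte hormone adiponectin, read 12.26, 12.25 and 11.70 in KO HFD mice, against 8.95, 10.81 and 11.32 in KO ND mice, 10.15, 11.73 and 10.11 in WT HFD mice and 11, 11.04 and 9.73 in WT ND mice. In KO, all 7 tested markers had higher means on HFD, and 1 of them, the fatty acid binding protein Fabp4, passed (log2 difference 0.53, adjusted p = 0.0493). Averaged over genotypes 2 of the 7 rose with HFD, the adipocyte hormone leptin, Lep, by 3.0 (limma adjusted p = 0.0328) and Fabp4 by 0.49 (adjusted p = 0.00681). Of the brown adipocyte markers, Cidea rose by 0.86 averaged over genotypes (adjusted p = 0.0255) and by 1.34 in WT (adjusted p = 0.0300), while Ucp1 lay below the filter. In whole muscle, more fat cells and more RNA per fat cell cannot be told apart.

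The marker level and Agpat2 also differed between mice of one group. KO ND mouse 1 had the lowest mean of Adipoq, Cidec and Retn of all 12 mice, at 6.90, and the lowest Agpat2, at 5.45. The KO HFD mice had the highest marker means, at 9.58, 9.64 and 9.11, and the highest Agpat2 values. That marker mean was 9.44 in KO HFD, 7.98 in KO ND, 8.05 in WT HFD and 8.49 in WT ND, so in WT it was lower on HFD. The WT diet difference was 0.07 for Adipoq, −0.69 for Cidec and −0.70 for Retn, none of them called. Other markers of the list had higher WT means on HFD, with differences of 2.34 for Lep, 0.44 for Fabp4 and 0.36 for Adig, also not called. With the marker mean as a covariate, the diet difference in KO was 0.83 for Agpat2 (adjusted p = 0.361), 0.72 for Scd2 (adjusted p = 0.207), 0.63 for Srebf1 (adjusted p = 0.250) and 0.70 for Gpam (adjusted p = 0.300). In that setting 34 genes of the whole table were called in KO, against 515 without the covariate. Averaged over genotypes the differences were 0.70 for Srebf1 (adjusted p = 0.00643), 0.75 for Gpam (adjusted p = 0.0131), 0.57 for Scd2 (adjusted p = 0.0217) and 0.63 for Agpat2 (adjusted p = 0.0860).

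Some markers of 2 other cell types were also higher in KO HFD muscle than in KO ND muscle. The summed macrophage signal of 6 markers was 3121 to 5593 in KO HFD mice, against 2071 to 2764 in KO ND mice, and 2 of 5 tested markers rose with HFD in KO, Adgre1 by 1.11 and Lyz2 by 1.07. The fibroblast sum of 4 markers was 9369 to 12426 in KO HFD mice, against 7701 to 7999 in KO ND mice, and 2 of 4 tested rose, Col1a1 and Col3a1. The remaining fibroblast markers, Dcn and Pdgfra, had diet differences in KO of −0.07 and 0.21 and were not called. In WT limma called 0 of the 9 tested markers with diet (1 macrophage and 0 fibroblast markers had an unadjusted p under 0.05), and the sums overlapped between HFD (1603 to 3399 for macrophages, 6082 to 8532 for fibroblasts) and ND (2774 to 3213 and 7415 to 7955). Averaged over genotypes Adgre1 rose with HFD by 0.63 (adjusted p = 0.00167) and Col3a1 by 0.67 (adjusted p = 0.0234), and of 3 tested Schwann cell markers Mal fell by 0.84 (adjusted p = 0.0345). In that comparison the macrophage marker Cd68 (−0.10) and the fibroblast marker Dcn (−0.13) had lower means on HFD and were not called. All 7 skeletal muscle markers had higher means on HFD averaged over genotypes, and limma called 1 of them, Mb (0.21, adjusted p = 0.0407). In WT, 6 of the 7 lay higher on HFD without overlap, as did 15.7% of all genes. The part of these cell types in the gene differences was not tested.

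**Figure D3:**
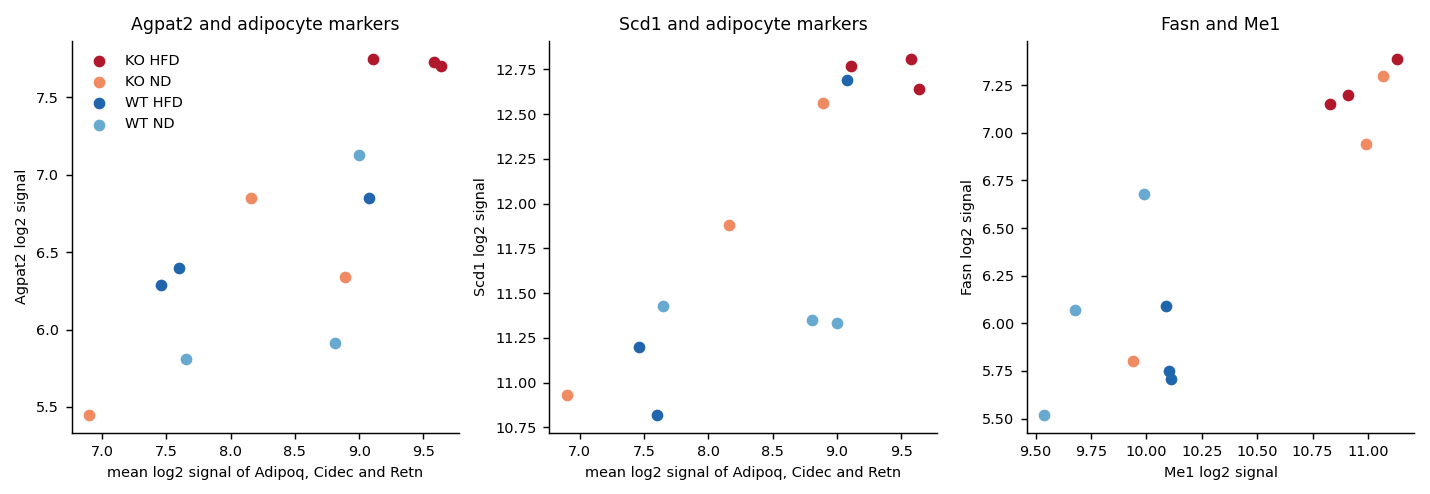
Agpat2 (left) and Scd1 (middle) log2 signal on the vertical axis against the mean log2 signal of the adipocyte markers Adipoq, Cidec and Retn on the horizontal axis, and Fasn against Me1 log2 signal (right), with 1 point per mouse coloured by group. The 3 KO HFD mice have the highest marker means, and KO ND mouse 1, with Me1 at 9.94 and Fasn at 5.80, lies among the WT mice in the right panel.

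Between genotypes, 1 of the 10 genes was called. Me1, the cytosolic malic enzyme that supplies NADPH for fatty acid synthesis, was 1.85-fold higher in KO muscle averaged over diets, where 0.899% of all genes were called higher and 0.714% lower. On HFD it read 10.91, 11.13 and 10.83 in KO mice, against 10.10, 10.11 and 10.09 in WT mice. On ND it read 9.94, 11.07 and 10.99 in KO mice, against 9.99, 9.54 and 9.68 in WT mice. The genotypes did not overlap on HFD, and on ND they overlapped through KO ND mouse 1 alone. Cell type markers differed in the same comparison, averaged over diets. The fibroblast markers Col1a1 and Col3a1 were higher in KO by 1.03 (limma adjusted p = 0.00756) and 0.94 (adjusted p = 0.0193), and the Schwann cell marker Pmp22 by 0.46 (adjusted p = 0.0465). The remaining fibroblast markers, Dcn and Pdgfra, differed by −0.04 and −0.02 and were not called. On HFD Col1a1 was higher by 1.47 (adjusted p = 0.0105), Col3a1 by 1.5 (adjusted p = 0.0238) and the macrophage marker Cd68 by 2.10 (adjusted p = 0.0311). All 7 tested white adipocyte markers also had higher means in KO on HFD, with Adipoq at 1.41 and Cidec at 1.92, and 0 were called. On ND 3 of the 7 had higher means in KO. The part of these markers' cell types in the genotype differences was not tested.

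The averaged log2 difference of Me1 was 0.89 ± 0.16 (SE, n = 6 per genotype, limma adjusted p = 0.0161), and it was 0.86 ± 0.23 on HFD (adjusted p = 0.0933) and 0.93 ± 0.23 on ND (adjusted p = 0.115). Without KO ND mouse 1, the lowest KO ND value, it was called on both diets, at 0.86 on HFD (adjusted p = 0.00820) and 1.29 on ND (adjusted p = 0.00185). That mouse is in neither HFD group, so on HFD only the shared spread and the adjustment over all genes changed. Without WT ND mouse 2 the averaged call was lost (0.84, adjusted p = 0.0518). After adjustment for the 3′ to 5′ control ratio Me1 was at 0.85 (adjusted p = 0.0411), and with the adipocyte marker mean at 0.78 (adjusted p = 0.0263). A second, dimmer Me1 probe set was 0.41 ± 0.09 higher in KO (adjusted p = 0.0354 over all probe sets), in the same direction at a smaller size.

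Fasn, fatty acid synthase, had a higher mean in KO than in WT on both diets without passing. It read 7.20, 7.39 and 7.15 in KO HFD mice, against 5.75, 5.71 and 6.09 in WT HFD mice. On ND it read 5.80, 7.30 and 6.94 in KO mice, against 6.68, 5.52 and 6.07 in WT mice. The KO HFD mice lay more than 1 log2 unit above every WT HFD mouse, and on ND the genotypes overlapped. The log2 difference was 1.40 ± 0.34 on HFD (SE, n = 3 per group, limma adjusted p = 0.0690), 0.59 ± 0.34 on ND (adjusted p = 0.566) and 0.99 ± 0.24 averaged (adjusted p = 0.0592). The averaged value passed without KO ND mouse 1 (1.21, adjusted p = 0.0138) or without WT ND mouse 1 (1.14, adjusted p = 0.0333). These were the lowest KO ND and the highest WT ND value, so leaving either out raises the difference by itself. The HFD value passed without KO ND mouse 1 (1.40, adjusted p = 0.0383). That mouse is in neither HFD group, so the difference stayed and only the shared spread and the adjustment over all genes changed.

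Elovl6, the elongase that takes palmitate to stearate, had a mean just above the filter and stood apart by genotype on both diets. It read 4.64, 4.82 and 4.03 in KO HFD mice, against 3.57, 3.39 and 3.28 in WT HFD mice, and 4.56, 4.86 and 4.71 in KO ND mice, against 2.03, 3.75 and 3.75 in WT ND mice. Of all genes, 1.51% were higher in KO without overlap on both diets. All WT values lay under the filter of 3.78, so Elovl6 entered the tested genes only through its KO values. Its averaged difference of 1.31 (SE 0.33) on the log2 scale is therefore a description with no test. The remaining Elovl6 probe sets, with means of 3.18 and 2.86, were also below it.

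Scd1, the main stearoyl-CoA desaturase of liver and fat, varied widely between mice of one group. It read 12.81, 12.64 and 12.77 in KO HFD mice, 10.93, 11.88 and 12.56 in KO ND mice, 11.20, 12.69 and 10.82 in WT HFD mice and 11.35, 11.33 and 11.43 in WT ND mice. WT HFD mouse 2 reached the KO HFD range, and it also had the highest marker mean of its group, at 9.08. The KO minus WT difference on HFD was 1.17 ± 0.41 (adjusted p = 0.190) and passed without WT HFD mouse 2 (1.73, adjusted p = 0.0159). The averaged genotype difference was 0.80 ± 0.29 (adjusted p = 0.191) and likewise passed without that mouse (1.08, adjusted p = 0.0206). Leaving out the highest WT HFD value raises both differences by itself, so these passes add no support. Scd1 and Scd2 lie close together on chromosome 19 (starts at 44394450 and 44293676). Whether the strain of origin of that region differed between the genotypes in this mixed background was not tested. The diet difference was 0.95 ± 0.41 in KO (adjusted p = 0.215) and 0.20 ± 0.41 in WT (adjusted p = 0.825). A second Scd1 probe set, with a mean of 5.30, was 1.65 ± 0.45 higher on HFD in KO (adjusted p = 0.0620 over all probe sets) and 0.01 ± 0.45 in WT (adjusted p = 0.991).

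The acetyl-CoA carboxylases had small differences and were not called in any comparison. Acaca, the cytosolic isoform that feeds fatty acid synthase, read between 6.08 and 6.83 in all 12 mice. Its largest difference among the single-diet and single-genotype comparisons was 0.19 ± 0.18 with diet in WT (adjusted p = 0.575). Acacb, the mitochondrial isoform whose product limits fatty acid oxidation in muscle, read 9.24, 9.28 and 9.44 in KO HFD mice, against 9.56, 9.73 and 9.93 in WT HFD mice. These groups did not overlap, but the log2 difference of −0.42 ± 0.11 did not pass (adjusted p = 0.0955), nor did the averaged genotype difference of −0.30 ± 0.08 (adjusted p = 0.0830). The 95% interval of the HFD difference ran from −0.67 to −0.18. It was the only one of the 10 genes with a lower mean in KO without overlap on HFD.

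In limma, 0 of the 10 genes were called between genotypes on HFD, on ND or in the interaction, where 0.732%, 0.414% and 0.141% of all genes were called. At an unadjusted p under 0.05 the counts were 7 of 10 on HFD, 2 on ND and 1 in the interaction, against 14.8%, 11.3% and 10.4% of all genes. On HFD 5 of the 10 genes lay higher in KO without overlap (11% of all genes), namely Fasn, Scd2, Me1, Agpat2 and Elovl6, and Acacb lay lower (8.39%). On ND the 1 gene higher without overlap was Elovl6 (9.25% of all genes). Elovl6 is in these counts and in the unadjusted ones, and its entry through KO values means that it adds no support to them. Fitted on the HFD groups alone, 3 genes passed on HFD: Fasn at 1.40 (adjusted p = 0.0197), Me1 at 0.86 (adjusted p = 0.0176) and Agpat2 at 1.22 (adjusted p = 0.0348). The share of all genes called in that separate fit is not given, so this count has no background to be read against. The genotype and diet comparisons share groups, so their values are not independent of each other.

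The correlation differed between pairs of the 10 genes. Over the 12 arrays, Fasn and Me1 had the highest correlation of the 45 pairs (Pearson r = 0.90), and r was 0.92 for their deviations from the group means. Srebf1 and Gpam followed (r = 0.88 over arrays and 0.56 for deviations). Fasn and Srebf1, enzyme and regulator, had r = 0.13 over arrays and 0.57 for deviations. Acacb and Elovl6 ran opposite (r = −0.75 over arrays and −0.59 for deviations). These values describe 12 arrays in 4 groups and were picked among all pairs, so no p is given.

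Among all 11345 genes, the ones most like Srebf1 over the 12 arrays were Ccdc90b, Plcd4 and Clasp1 (r = 0.961, 0.958 and 0.955). Those most like Gpam were Per3, Nr1d2 and Sspn (r = 0.948, 0.939 and 0.932), of which Per3 and Nr1d2 belong to the circadian clock. Me1 ran closest to Usp10, Trmt6 and Pcp4l1 (r = 0.935, 0.924 and 0.903), and Fasn to Me1, Usp10 and Rbp4 (r = 0.899, 0.894 and 0.864). Agpat2 ran closest to Ubd, Pgd and Rnasek (r = 0.906, 0.902 and 0.899), where Pgd is the NADPH-producing phosphogluconate dehydrogenase. Scd1 ran closest to Cd1d1, Utrn and Mcam (r = 0.945, 0.937 and 0.934), and Scd2 to Smtn, Ak3 and Slc38a6 (r = 0.949, 0.940 and 0.938). The nearest genes were Glg1, Ppp5c and Tmc4 for Acaca (r = 0.861, 0.860 and 0.856), Rnf114, Dpm1 and Aars for Acacb (r = 0.939, 0.908 and 0.900), and Dolpp1, Rab6b and Cobll1 for Elovl6 (r = 0.916, 0.876 and 0.875).

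The promoters of the pairs that ran together are shown for their motifs. RefSeq promoter windows (GRCm38.p6) were found for 8 of the 10 genes, 12 windows in all, and the 250 bases before each start were searched on both strands. The core of the sterol regulatory element, TCACNCCAC, and the E-box CACGTG had no match in the 12 windows, and were found in 1.05% and 6.02% of 32851 windows of all genes. The CCAAT box was found in 6 of the 12 windows, of 5 genes, and in 33.8% of all windows. A core shorter by its last letter, TCACNCCA, chosen after the sequences were seen, matched the Gpam window alone, and 3.67% of all windows. The 200 bases before the start are given below in lower case on the minus strand, 5′ to 3′, with CCAAT boxes (ATTGG where on the opposite strand) and the shorter core in capitals, for the most downstream of 3 Srebf1 starts (chr11:60210472-60210671), the upstream Gpam start (chr19:55127239-55127438), Fasn (chr11:120824548-120824747) and the upstream Me1 start (chr9:86695915-86696114).
Srebf1: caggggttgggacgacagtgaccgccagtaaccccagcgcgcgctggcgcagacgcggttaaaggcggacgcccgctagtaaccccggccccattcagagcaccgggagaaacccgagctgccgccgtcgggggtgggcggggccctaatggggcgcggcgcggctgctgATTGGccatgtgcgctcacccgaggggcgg
Gpam: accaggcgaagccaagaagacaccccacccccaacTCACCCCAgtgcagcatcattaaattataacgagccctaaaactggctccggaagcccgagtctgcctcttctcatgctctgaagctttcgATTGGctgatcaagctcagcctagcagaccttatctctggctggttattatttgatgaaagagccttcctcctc
Fasn: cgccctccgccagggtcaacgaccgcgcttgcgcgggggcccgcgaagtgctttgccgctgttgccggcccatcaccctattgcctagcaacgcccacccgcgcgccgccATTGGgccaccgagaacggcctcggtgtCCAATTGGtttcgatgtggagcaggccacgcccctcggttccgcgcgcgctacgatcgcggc
Me1: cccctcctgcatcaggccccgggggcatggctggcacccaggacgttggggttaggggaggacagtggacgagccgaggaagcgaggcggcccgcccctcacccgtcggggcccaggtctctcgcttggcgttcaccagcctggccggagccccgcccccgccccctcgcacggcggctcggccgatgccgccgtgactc
Srebf1 has 1 CCAAT box at −30 to −26 from the start. Gpam has 1 at −74 to −70 and the shorter core at −165 to −158. Fasn has 3, at −90 to −86, −62 to −58 and −59 to −55, of which the last pair share bases. The upstream Me1 window has no match. A match is a string of letters and no evidence of binding.

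Of 52 further genes of the pathway and its regulators, 47 had a probe set of their own and 39 were tested. Averaged over genotypes 3 of the 39 rose with HFD and 0 fell, beside the 7.49% of all genes called higher and 6.19% called lower. Their median log2 difference was 0.08, against 0.06 over all genes. Nr1h2, G6pdx, Scd4, Acsl1 and Gk had no probe set named for them alone.

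Mlxipl encodes ChREBP, the carbohydrate-responsive transcription factor of lipogenic genes. It read 8.67, 8.86 and 8.88 in KO HFD mice, against 8.41, 8.46 and 8.40 in KO ND mice, and 8.90, 9.01 and 8.41 in WT HFD mice, against 8.29, 8.08 and 7.87 in WT ND mice. HFD lay above ND without overlap in both genotypes. The averaged log2 difference was 0.54 ± 0.11 (SE, n = 6 per diet, limma adjusted p = 0.00633). It was 0.38 in KO (adjusted p = 0.185) and 0.70 in WT (adjusted p = 0.0192). The WT call was lost without WT ND mouse 2 or 3 or WT HFD mouse 1 or 2, with adjusted p between 0.0671 and 0.0827.

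Hacd1, a dehydratase of the elongation cycle that is highly expressed in muscle, was 0.45 ± 0.08 higher on HFD averaged over genotypes (adjusted p = 0.00350), and this call held in all 24 alternatives. It read 11.37, 11.11 and 11.40 in KO HFD mice, against 11.07, 10.76 and 10.85 in KO ND mice, and 11.39, 11.25 and 11.22 in WT HFD mice, against 10.92, 10.89 and 10.59 in WT ND mice. Its WT difference of 0.49 (adjusted p = 0.0252) lost its call without WT ND mouse 2 or 3 or WT HFD mouse 1 or 2 (adjusted p between 0.0598 and 0.104). Acsl3, an acyl-CoA synthetase, was 0.76 ± 0.18 higher averaged over genotypes (adjusted p = 0.0155), with 0.82 in KO (adjusted p = 0.0913) and 0.71 in WT (adjusted p = 0.121). It read 7.50, 7.76 and 7.91 in KO HFD mice, against 7.33, 6.84 and 6.56 in KO ND mice, and 8.52, 7.72 and 8.15 in WT HFD mice, against 7.26, 7.94 and 7.05 in WT ND mice. After adjustment for the 3′ to 5′ control ratio, the averaged differences of Mlxipl (0.58, adjusted p = 0.0582) and Acsl3 (0.84, adjusted p = 0.0994) did not pass. Neither was smaller than without the ratio.

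Me3, a mitochondrial malic enzyme, moved in opposite directions in the genotypes. It read 7.84, 7.94 and 7.76 in KO HFD mice, against 8.30, 8.54 and 8.55 in KO ND mice, and 8.10, 8.24 and 8.20 in WT HFD mice, against 7.92, 7.83 and 7.73 in WT ND mice. In KO it fell with HFD by 0.62 (SE 0.11, n = 3 per group, limma adjusted p = 0.00877), while the WT difference of 0.36 did not pass (adjusted p = 0.0759). On ND it was 0.64 higher in KO than in WT (adjusted p = 0.0261). The interaction was −0.97 ± 0.16 (adjusted p = 0.0362). Me3 was the 1 pathway gene called lower with diet in KO, the 1 called between genotypes on ND and the 1 called in the interaction. The diet call in KO was lost without KO ND mouse 2 (−0.58, adjusted p = 0.0540). The ND call was lost without WT ND mouse 2 or 3 or KO ND mouse 2 or 3 (adjusted p between 0.105 and 0.126). The interaction was lost without WT ND mouse 2 or 3, WT HFD mouse 1 or 3, any KO ND mouse, or KO HFD mouse 1 or 3 (adjusted p between 0.0522 and 0.119).

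**Figure D4:**
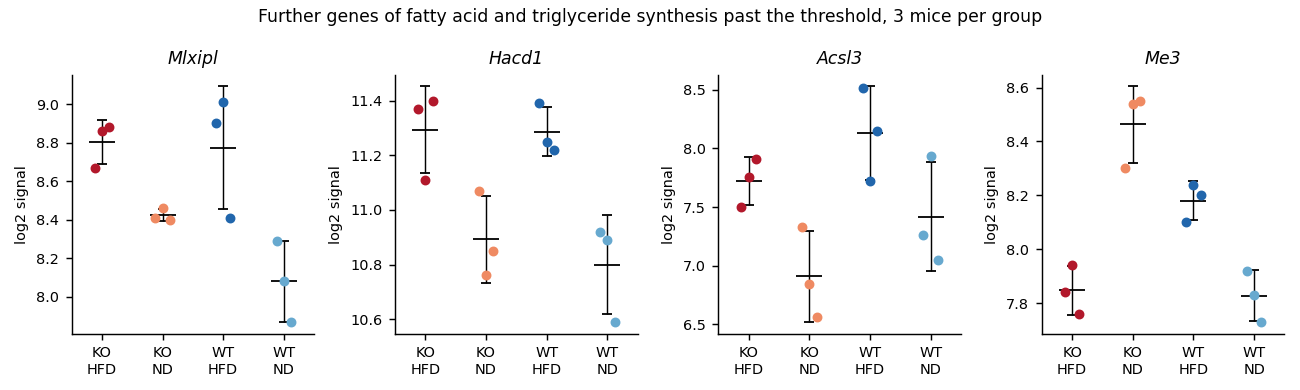
Log2 signal (vertical axis, one scale per gene) of Mlxipl, Hacd1, Acsl3 and Me3 in each mouse, with 3 mice in each of the groups KO HFD, KO ND, WT HFD and WT ND on the horizontal axis. Points are mice, horizontal bars are means and error bars are SD; Mlxipl and Hacd1 lie higher on HFD than on ND in both genotypes, and Me3 lies lower on HFD in KO and higher on HFD in WT.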

How the data were processed

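RNA of 12 muscles was measured on 12 one-colour Affymetrix arrays, 1 per mouse. The deposited log2 signals come from MAS5 run by the authors, per the submitters' processing notes, which give no version. Every array had a linear mean of 100.05 after trimming the lowest and highest 2%, so no further scaling was done. Of 45101 probe sets, 64 controls were removed, 34945 carried 1 gene symbol, 932 several and 9160 none. Symbols were updated by Entrez ID for 34741 of them. Probe sets with a mean log2 value above the median of 3.78 were kept, and each of the 11345 genes tested was represented by its brightest one.

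The 4 groups entered a single linear model in limma 3.58.1 (R 4.3.3). Variances were moderated along an intensity trend (residual degrees of freedom 8, prior 5.42). The 7 contrasts were diet within each genotype, genotype on each diet, both averages and the interaction, with Benjamini-Hochberg adjustment over all genes. SE and 95% intervals come from this fit. Groups follow the source labels, which do not say whether mice of a group shared litters or cohorts. The p-values treat the mice as independent and measure the spread between these mice within groups. The number of arrays limits the precision. The steps were tested on simulated data. Python 3.11.15, pandas 2.3.3 and matplotlib 3.10.9 drew the figures.

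Named genes are the 10 members, up to 8 called genes per direction and contrast of a list of 52 pathway genes, cell type markers, Ffar4 and the 3 tested genes most correlated with each member. The members and lists were chosen with earlier results of these data known. Alternatives were 2 offsets, 2 filters, quantile normalization, median centring, 2 ways of combining probe sets, no intensity trend, array weights, 2 covariates, separate fits of the groups compared, and leaving out each mouse.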

Additional observations from a re-analysis of the deposited data

Results flagged for a closer look

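The diet effect on Me3, the mitochondrial malic enzyme, differed between genotypes by a test of the difference itself. The log2 diet difference in KO minus that in WT was −0.97 (limma interaction, adjusted p = 0.0362), with 7.85 ± 0.09 in KO HFD, 8.46 ± 0.14 in KO ND, 8.18 ± 0.07 in WT HFD and 7.83 ± 0.09 in WT ND (SD, n = 3 each). All 3 KO mice on HFD read below the KO mice on ND, and all 3 WT mice on HFD read above the WT mice on ND. The call held in 10 of 24 alternatives and was lost without WT ND mouse 2 or 3, WT HFD mouse 1 or 3, any KO ND mouse, or KO HFD mouse 1 or 3, with differences of −1.05 to −0.92 and adjusted p between 0.0522 and 0.119. It was 1 of 16 genes called in the interaction among 11345.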

How the results depend on the processing

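Of 1909 log2 differences of named genes recomputed under 25 alternatives, 1784 kept their side of the threshold, and no called difference changed sign. Most of the 1909 belong to comparisons not called with the main settings, so this count says little about the calls. The averaged diet calls of Srebf1, Gpam and Hacd1 held in all 24 alternatives. The averaged diet call of Agpat2 held in 11 of 24, Gpam with diet in WT in 11 of 25 and the Me3 interaction in 10 of 24. With the main settings, 4 of the 10 members were called with diet averaged over genotypes, 4 with diet in KO, 2 with diet in WT, 1 between genotypes averaged over diets and 0 in the other comparisons. Leaving out single mice gave 3 to 4 (averaged diet), 0 to 4 (diet in KO), 0 to 2 (diet in WT), 0 to 2 (averaged genotype and genotype on HFD), 0 to 1 (genotype on ND) and 0 (interaction). No intensity trend gave 0 for diet in KO, 0 for diet in WT and 0 for averaged genotype. Median centring gave 0 for diet in KO and 1 for diet in WT. Over all genes the diet calls fell too, from 515 in KO and 687 in WT. They fell to 232 and 311 without the trend, and to 413 and 448 with median centring. The 3′ over 5′ covariate gave 2 for averaged diet, 2 for diet in KO and 1 for diet in WT. Over all genes it left 265 diet calls in KO and 186 in WT. The adipocyte covariate gave 0 for diet in KO and 1 for genotype on ND. No filter gave 1 and quantile normalization 1 for diet in WT. Only the groups compared gave 0 for diet in WT and 3 for genotype on HFD, the latter without a share of all genes beside it. For averaged genotype the 50th percentile offset gave 3, with Elovl6 among them, and array weights 2.

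The pathway list had 3 called with averaged diet, 2 with diet in WT, 1 each with diet in KO, genotype on ND and interaction, and 0 otherwise. Leaving out single mice gave 3 to 5, 0 to 3, 0 to 2, 0 to 1 and 0 to 1 for these, 0 to 2 for averaged genotype and 0 to 3 for genotype on HFD. Averaging probe sets gave 6 for averaged diet, 2 for diet in KO and 1 for genotype on HFD. Diet in KO was 2 with quantile normalization and 3 with array weights, and averaged genotype was 1 with the 50th percentile offset. Median centring, no intensity trend and the 3′ over 5′ covariate each gave 0 for diet in WT, for genotype on ND and for the interaction, and that covariate gave 1 for genotype on HFD. Only the groups compared gave 1 for diet in WT and 0 for genotype on ND. The interaction was also 0 with every probe set tested and with the adipocyte covariate. The causes were not tested. No paired analysis was possible because the labels give the mice no shared replicate numbers. Elovl6, near the filter, is the gene most limited by signal.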
